A study of Pyrus communis with 12 samples.

Results

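The genes described here are the auxin response and auxin transport genes of pear fruit skin. They were taken from the deposited table by the name of their protein domain. A gene was kept where that name held "Aux/IAA", "Auxin response factor", "GH3", "Auxin efflux carrier" or "auxin associated" (in any case of letters), and did not hold "SAUR". The rule found 83 of the 42760 genes. They comprised 37 genes with an Aux/IAA-ARF dimerisation domain, 3 with an auxin response factor (ARF) domain, 15 GH3 genes, 22 auxin efflux carriers (11 of them with the domain named "plant type") and 6 dormancy/auxin associated genes. No measured value entered the rule, though the genes were chosen with earlier results of these data known.

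RNA was sequenced from the skins of young fruits of the pear ‘RCF’, a red-skinned sport, and of the cultivar ‘CF’ from which it arose. ‘RCF2’ and ‘CF2’ were sampled at 5 days after full bloom (DAFB), when the 2 differed in skin color, and ‘RCF1’ and ‘CF1’ at 2 DAFB, when both were green. Each group had 3 replicates, 12 libraries in all, and each replicate pooled the skins of 100 fruits. All fruits came from 6-year-old trees in 1 orchard, grafted on *Pyrus betulaefolia*, with no treatment and no transgene in any group. ‘RCF’ is a single sport, so its comparison with ‘CF’ sets 1 red line against 1 green line. Which trees the replicates came from is not given in the sources used here, and the p-values measure only the spread between these pooled samples.

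Auxin acts by removing repressors. In the best studied plants, Aux/IAA proteins bind ARF transcription factors through a shared dimerisation domain and hold auxin-responsive genes silent, until auxin brings the Aux/IAA proteins to a ubiquitin ligase and they are degraded. Many Aux/IAA and GH3 genes are themselves early targets of auxin, and some GH3 enzymes join auxin to amino acids, which closes a feedback loop. Efflux carriers of the PIN family move auxin out of cells, and the related PIN-LIKES proteins act at the endoplasmic reticulum. Dormancy/auxin associated genes were first described as transcripts that auxin represses in strawberry fruit and that accumulate in dormant buds. In young fruit, auxin from the seeds is known for its part in fruit set and growth.

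The measure was FPKM, the number of fragments mapped to a gene, scaled by the authors to gene length and library size. The sum of FPKM still differed between libraries (575131 to 636409), so levels in different libraries can be compared only roughly. Of the 83 genes, 64 reached an FPKM of 1 in 3 or more libraries and were tested, and none of these passed through 1 group only. Of the 19 that did not pass, 17 stayed under an FPKM of 1 in every library and 3 of them were at 0 throughout. The highest value among the 19 was 4.71 FPKM, for PCP041423 in replicate 2 of ‘CF1’. Fold changes were taken on log2(FPKM + 1), where a change in a weakly expressed gene appears smaller than it is. A DEG was a gene with an unadjusted P under 0.05 in limma and a log2 fold change of 1 or more in either direction. Adjusted P values are those of Benjamini and Hochberg over all 25707 genes tested. With 3 libraries in each group, P = 0.1 is the smallest value an exact permutation test could give. The libraries are bulk tissue, so fewer cells of a type and less RNA per cell cannot be told apart.

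Replicate 3 of ‘CF1’ stood apart from its group, and the auxin genes were among those that separated it. Its correlation with the other ‘CF1’ libraries was 0.955 and 0.923 over all genes, while every other pair of replicates reached at least 0.984. Of the 64 genes tested, 32 lay in this library at less than 50% of the lower of the other ‘CF1’ values, against 18.1% of all genes tested, and 20 of these 32 were Aux/IAA-ARF genes. Dormancy/auxin associated genes went the other way, and 5 of 6 were highest in this library, as were 31.9% of all genes tested. Replicate 2 of ‘CF1’ lay at the opposite end, with 29 of the 33 Aux/IAA-ARF genes highest there and 4 of the 6 dormancy/auxin associated genes lowest. Of all genes tested, 48.1% were highest and 30.5% lowest in replicate 2. Genes found by the domain names histone H2A, H2B, H3 or H4 served as a marker of dividing cells. Their summed FPKM was 271.7 in replicate 3 of ‘CF1’ and between 1144 and 1871 in the other 11 libraries. The sum of the chlorophyll a/b binding genes was 3496 to 3991 in ‘RCF2’, 2755 to 3472 in ‘RCF1’, 4927 to 5450 in ‘CF2’ and 3831 to 4829 in ‘CF1’, so it was lower in ‘RCF’ at both stages without overlap. The part of these differences in the results that follow was not tested. Fold changes and counts of called genes that rest on ‘CF1’ are, for the most part, given also without its replicate 3. That holds where it changed the call or moved the value by over 1.5 times. Counts of groups without overlap, of shared calls and signs, and of genes under an unadjusted P alone are given with all libraries only.

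**Figure D1:**
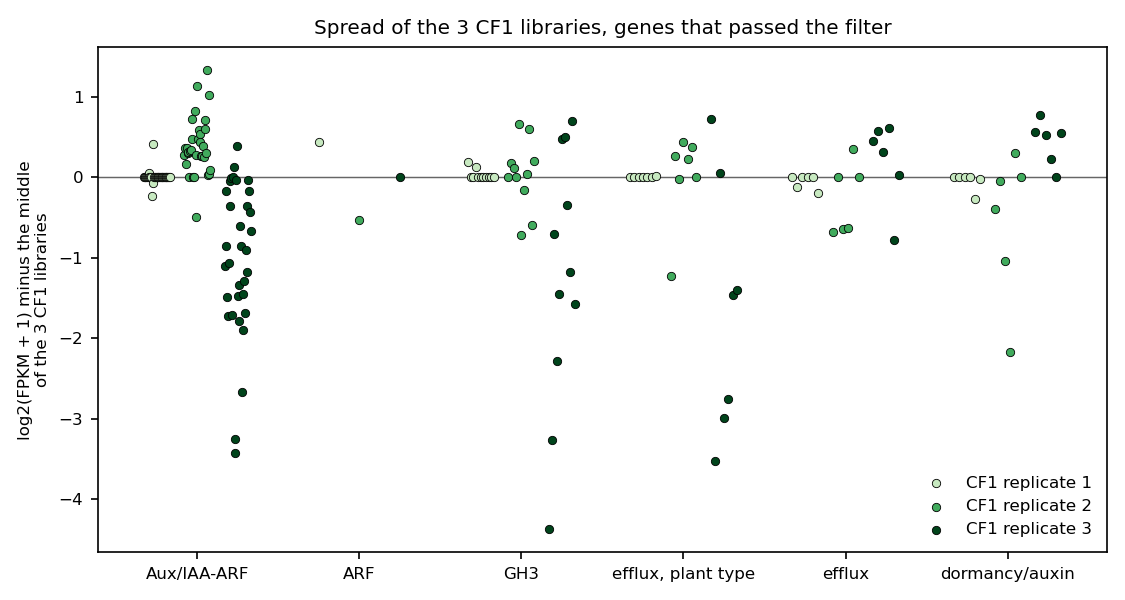
Spread of the ‘CF1’ libraries over the 64 genes tested, by family on the x axis. Each point is 1 gene in 1 library, and the y axis is its log2(FPKM + 1) minus the middle of the 3 ‘CF1’ values. Replicate 3 reached far below the other replicates in the Aux/IAA-ARF, GH3 and plant type efflux carrier genes, and lay at or above the middle value in all 6 dormancy/auxin associated genes.

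Between stages within ‘RCF’, 7 of the 64 genes were higher and 8 were lower at 5 DAFB (‘RCF2’ vs. ‘RCF1’), where 3.54% of all genes tested were higher and 6.71% lower. All 15 held after adjustment, as did 10.2% of all genes tested. The groups did not overlap for 48 of the 64 genes, and for 56.5% of all genes. The median log2 fold change of the 64 genes was 0.26, against 0.02 over all genes. Within ‘CF’ (‘CF2’ vs. ‘CF1’), 9 genes were higher and 9 lower, against 7.23% and 9.91% of all genes, and 11 held after adjustment, against 12.6%. There the groups did not overlap for 38 of the 64 genes and for 58.9% of all genes, and the median was 0.35 against 0.16. Leaving out replicate 3 of ‘CF1’, 5 were higher and 8 were lower, against 3.29% and 8.67% of all genes, all 13 held after adjustment, and the median was 0.09, as over all genes. These 2 comparisons share no library. Of the genes called higher at 5 DAFB, 4 were called in both, which is 4 of 7 in ‘RCF’ and 4 of 9 in ‘CF’. Of those called lower 5 were called in both, which is 5 of 8 and 5 of 9. How often calls were shared among all genes tested was not computed, so these counts have no background beside them. The shared genes changed without replicate 3 of ‘CF1’. Of those shared above, PCP021498 (0.82), PCP027040 (0.70) and PCP037538 (-1.21) were then not called in ‘CF’. PCP006037 (1.02), called higher in ‘RCF’, and PCP026886 (-1.08), called lower there, were then called in ‘CF’. The fold changes had the same sign in 55 of 64 genes (85.9%), against 78.8% of all genes tested.

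Between the cultivars fewer genes passed. At 5 DAFB (‘RCF2’ vs. ‘CF2’), 1 of the 64 genes was higher in ‘RCF2’ and 2 were lower, against 0.902% and 0.358% of all genes. All 3 held after adjustment, against 1.07% of all genes. None held with no filter on low FPKM, in 1 fit of all 12 libraries, or without replicate 1 of ‘RCF2’ or of ‘CF2’, 1 held without replicate 2 or 3 of ‘RCF2’, and 2 held without replicate 2 or 3 of ‘CF2’. At this stage the groups did not overlap for 34 of the 64 genes, 24 of them lower in ‘RCF2’ and 10 higher. Of all 25707 genes tested, 29.9% did not overlap, 4088 genes lower in ‘RCF2’ and 3607 higher. Most of these differences were small, and the median over the 64 genes was -0.09 against -0.01. At 2 DAFB (‘RCF1’ vs. ‘CF1’), 2 genes were higher and 3 were lower in ‘RCF1’, against 1.02% and 1.87% of all genes. None of these 5 held after adjustment in limma, where 12 of the 64 genes had an unadjusted P under 0.05, as did 15.6% of all genes, and only 0.0233% of all genes held. With array weights in the same tool, 6 of the 64 genes were called and held, and 5.53% of all genes were called. Groups did not overlap for 13 of the 64 genes and for 29.1% of all genes, and the median was 0.12 in both. Without replicate 3 of ‘CF1’, no gene was higher and 2 were lower, against 0.650% and 1.40% of all genes, and the median was -0.13, against 0.03 over all genes.

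**Figure D2:**
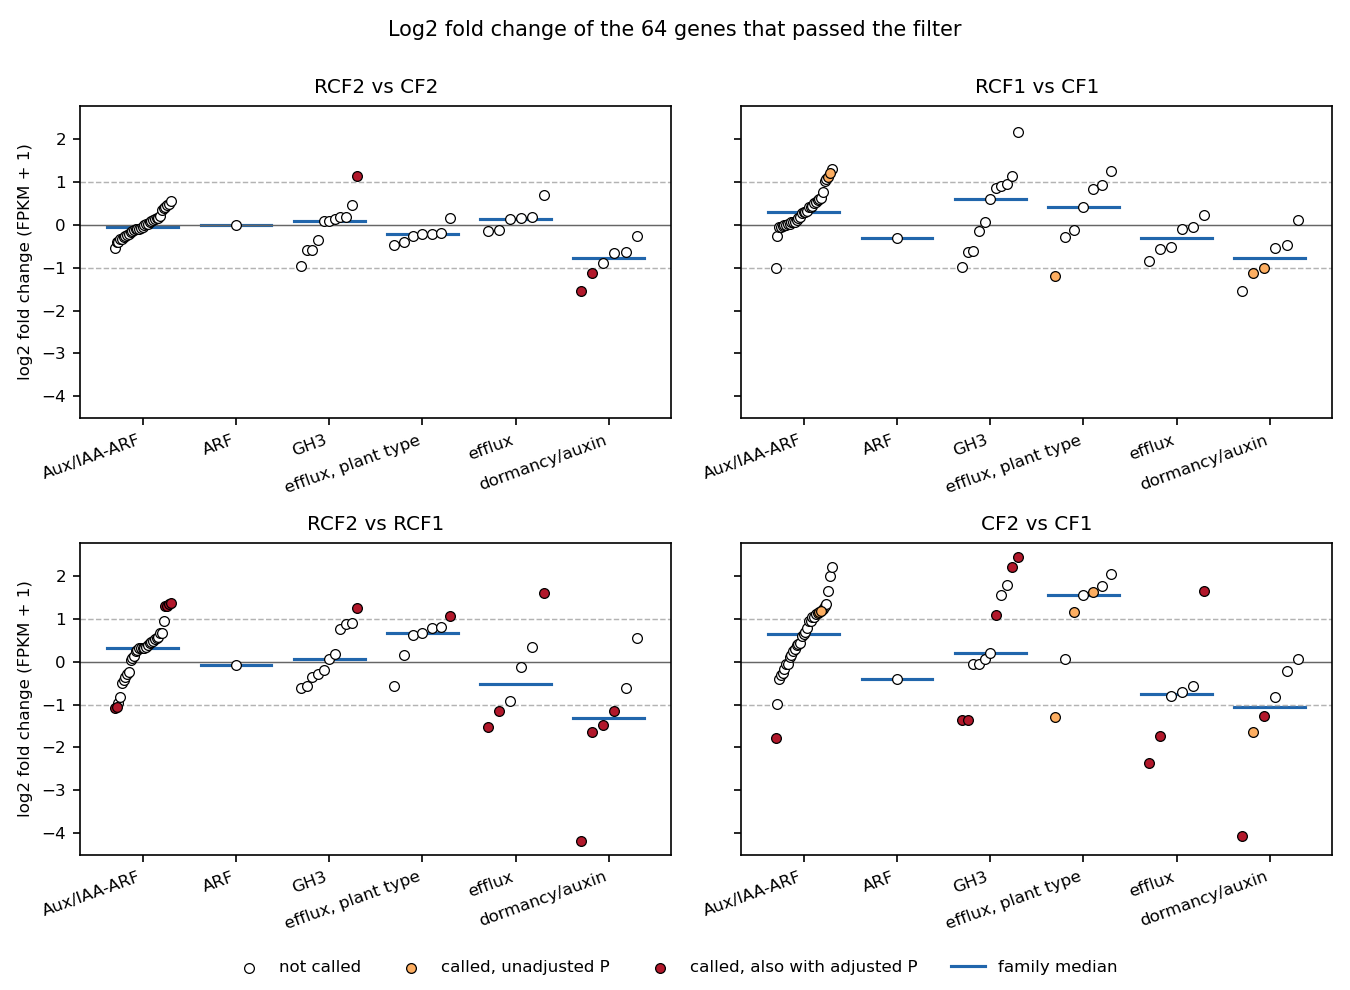
Log2 fold change of the 64 genes tested in the 4 comparisons, with the families on the x axis. Each point is 1 gene, the y axis is on the log2(FPKM + 1) scale, the blue bar is the family median, and dashed lines mark the fold threshold. Dormancy/auxin associated genes lay below 0 in all 6 cases in ‘RCF2’ vs. ‘CF2’, and the lowest point in both stage comparisons was PCP019781, at -4.17 and -4.06.

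Among the repressors and their partners, the Aux/IAA-ARF dimerisation family was the largest, and 33 of its 37 genes were tested. The dimerisation domain is shared by Aux/IAA proteins and ARFs, so the domain name alone does not tell which of these a gene encodes. Summed over the family, the level was 888.5 ± 27.0 FPKM in ‘RCF2’, 967.8 ± 10.4 in ‘RCF1’, 899.7 ± 18.1 in ‘CF2’ and 745.4 ± 238.7 in ‘CF1’ (SD, n = 3). The wide spread in ‘CF1’ came with 494.6 FPKM in replicate 3, against 771.9 and 969.8 in the other replicates. The most abundant genes on the mean of the 12 libraries were PCP021777 (109.2 FPKM) and PCP029635 (84.2 FPKM).

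PCP021777 stood out at 2 DAFB in ‘RCF’. It lies on scaffold 00894 from 50456 to 51529, on the plus strand. Its values were 94.5, 100.2 and 88.7 FPKM in ‘RCF2’, 190.7, 181.5 and 185.5 in ‘RCF1’, 70.8, 67.0 and 74.9 in ‘CF2’, and 95.8, 116.5 and 44.0 in ‘CF1’. Every ‘RCF1’ library thus lay above every library of the other groups. It was higher in ‘RCF1’ than in ‘CF1’ by a log2 fold change of 1.22 ± 0.36 (SE; limma, adjusted P = 0.27), and the value was 0.41 ± 0.07 in ‘RCF2’ vs. ‘CF2’ (adjusted P = 0.020). Leaving out replicate 3 of ‘CF1’, the first was 0.81 ± 0.12 (adjusted P = 0.062) and was no longer called, nor was it with array weights (0.95). From 2 to 5 DAFB it was -0.97 ± 0.07 in ‘RCF’ (adjusted P = 4.4e-05), just under the fold threshold, and -0.16 ± 0.36 in ‘CF’ (adjusted P = 0.74), or -0.57 ± 0.12 in ‘CF’ without replicate 3 of ‘CF1’ (adjusted P = 0.016). Its neighbour on the same scaffold, PCP021776, lies 12589 bases away on the other strand, has the same domain and a mean of 80.8 FPKM, and was called in none of the comparisons.

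PCP043715, the other Aux/IAA-ARF gene called at 2 DAFB, had 58.5, 55.0 and 56.3 FPKM in ‘RCF2’, 79.8, 67.2 and 83.0 in ‘RCF1’, 53.1, 55.5 and 57.3 in ‘CF2’, and 41.6, 51.8 and 19.2 in ‘CF1’. All ‘RCF1’ libraries were above all ‘CF1’ libraries, and at 5 DAFB the cultivars overlapped. The log2 fold change in ‘RCF1’ vs. ‘CF1’ was 1.11 ± 0.36 (limma, adjusted P = 0.28). The call was lost without replicate 3 of ‘CF1’ (0.70 ± 0.15) and with array weights (0.86), and also without replicate 1 (1.08) or 3 (1.05) of ‘RCF1’.

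**Figure D3:**
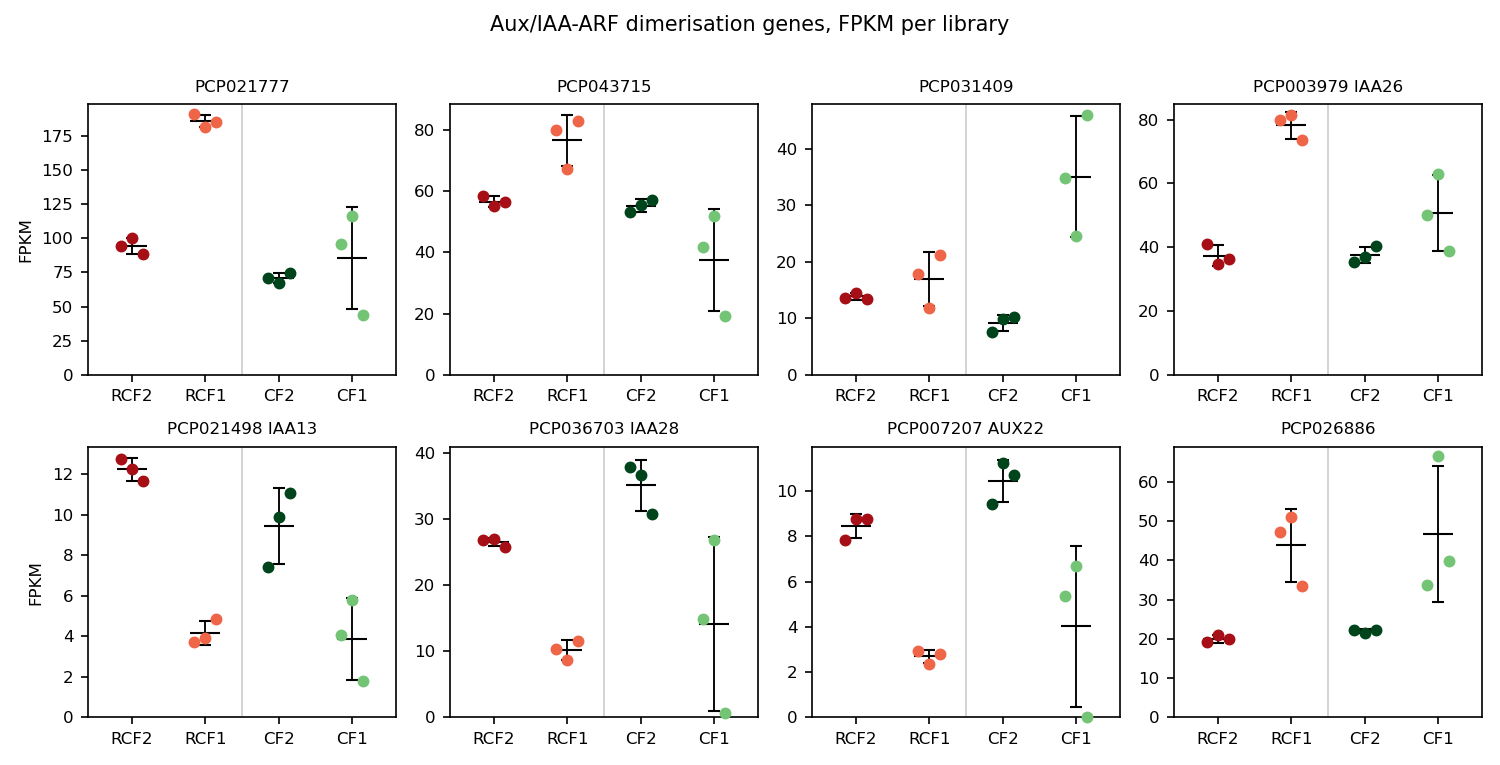
FPKM per library of 8 Aux/IAA-ARF dimerisation genes, with the groups on the x axis. Points are libraries, and the bar and whiskers are the mean and SD (n = 3). PCP021777 was highest in all ‘RCF1’ libraries, at 181.5 to 190.7 FPKM, while PCP021498 (IAA13) was higher at 5 than at 2 DAFB in both cultivars.

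From 2 to 5 DAFB in ‘RCF’, 4 Aux/IAA-ARF genes rose, 2 fell and 27 were not called, and all 6 calls held after adjustment. The median of the 33 genes was 0.33. The study's annotation names 4 genes of this family, 3 of which rose here. PCP021498, named IAA13, had 12.8, 12.3 and 11.7 FPKM in ‘RCF2’, 3.72, 3.92 and 4.84 in ‘RCF1’, 7.42, 9.88 and 11.1 in ‘CF2’, and 4.05, 5.81 and 1.79 in ‘CF1’. The stages did not overlap in either cultivar. Its log2 fold change was 1.37 ± 0.10 in ‘RCF’ (limma, adjusted P = 4.6e-05) and 1.18 ± 0.35 in ‘CF’ (adjusted P = 0.056). In ‘CF’ the call was lost without replicate 3 of ‘CF1’ (0.82) or replicate 3 of ‘CF2’ (1.06).

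PCP036703, named IAA28, had 26.9, 27.0 and 25.8 FPKM in ‘RCF2’, 10.4, 8.62 and 11.6 in ‘RCF1’, 37.96, 36.8 and 30.8 in ‘CF2’, and 14.8, 26.9 and 0.665 in ‘CF1’. At 5 DAFB every ‘RCF2’ library was below every ‘CF2’ library. Its log2 fold change reached 1.31 ± 0.10 in ‘RCF2’ vs. ‘RCF1’ (limma, adjusted P = 6.7e-05), where 1 fit of all 12 libraries lost the call, and 2.00 ± 1.01 in ‘CF2’ vs. ‘CF1’ (adjusted P = 0.17), or 0.78 ± 0.24 without replicate 3 of ‘CF1’ (adjusted P = 0.050). PCP007207, named AUX22, had 7.84, 8.75 and 8.79 FPKM in ‘RCF2’, 2.93, 2.35 and 2.81 in ‘RCF1’, 9.43, 11.2 and 10.7 in ‘CF2’, and 5.38, 6.68 and 0 in ‘CF1’. Its log2 fold change was 1.36 ± 0.10 in ‘RCF’ (adjusted P = 4.1e-05) and 1.64 ± 0.77 in ‘CF’ (adjusted P = 0.14), or 0.71 ± 0.13 in ‘CF’ without replicate 3 of ‘CF1’ (adjusted P = 0.011). In ‘RCF1’ vs. ‘CF1’ the log2 fold changes of PCP036703 and PCP007207 were 0.30 and 0.01, and both were -0.92 without that library (adjusted P = 0.17 and 0.062), a change of sign in values that were not called. Both genes were thus at or near 0 in replicate 3 of ‘CF1’ and above 5 FPKM in the other ‘CF1’ libraries, and their errors in ‘CF’ were wide.

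The genes that fell in ‘RCF’ included the fourth named gene, PCP003979 (IAA26). It had 41.1, 34.8 and 36.2 FPKM in ‘RCF2’, 79.8, 81.3 and 73.5 in ‘RCF1’, 35.4, 37.0 and 40.3 in ‘CF2’, and 50.1, 62.9 and 39.0 in ‘CF1’. The values of ‘RCF1’ lay above those of every other group, as for PCP021777. This gave a log2 fold change of -1.05 ± 0.08 in ‘RCF2’ vs. ‘RCF1’ (limma, adjusted P = 6.8e-05) and -0.40 ± 0.19 in ‘CF2’ vs. ‘CF1’ (adjusted P = 0.16). This lay close to the fold threshold, and the call was lost without replicate 2 of ‘RCF2’ (-0.9997), on TPM (-0.99) and after quantile normalization (-0.95). PCP026886 had 19.1, 21.0 and 19.9 FPKM in ‘RCF2’, against 47.2, 51.0 and 33.4 in ‘RCF1’. It fell by 1.07 ± 0.15 on the log2 scale (adjusted P = 0.00084), and at -0.96 without replicate 2 of ‘RCF1’ it was not called. The same gene was at -0.99 ± 0.25 in ‘CF2’ vs. ‘CF1’ (adjusted P = 0.041), just short of the fold threshold. Without replicate 3 of ‘CF1’ it was -1.08 ± 0.26, called and held (adjusted P = 0.024), and it was also called with a pseudocount of 0.1 (-1.02) and without replicate 1 of ‘CF2’ (-1.005) or of ‘CF1’ (-1.19).

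Between the stages of ‘CF’, 3 Aux/IAA-ARF genes rose and 1 fell, and only the fall of PCP031409 held after adjustment. The count became 1 higher and 2 lower without replicate 3 of ‘CF1’, and all 3 held. The gene then called higher was PCP006037 (1.02 ± 0.14, limma, adjusted P = 0.0047), which was also called higher in ‘RCF’. Those called lower were PCP031409 and PCP026886. PCP031409 had 13.5, 14.6 and 13.5 FPKM in ‘RCF2’, 17.8, 11.9 and 21.2 in ‘RCF1’, 7.57, 9.83 and 10.2 in ‘CF2’, and 34.8, 24.5 and 45.9 in ‘CF1’. Here replicate 3 of ‘CF1’ was the highest library, but all ‘CF1’ libraries were above all others. The log2 fold change was -1.79 ± 0.25 in ‘CF’ (limma, adjusted P = 0.011), -1.58 ± 0.19 without replicate 3 of ‘CF1’ (adjusted P = 0.0030), and -0.24 ± 0.18 in ‘RCF’ (adjusted P = 0.33). In ‘RCF1’ vs. ‘CF1’ it was -0.998 ± 0.30 (adjusted P = 0.27), just short of the fold threshold, and -0.79 without replicate 3 of ‘CF1’. It was called there with a pseudocount of 0.1 (-1.04) and with array weights (-1.03). Leaving out replicate 1 (-1.05) or 3 (-1.17) of ‘RCF1’ or replicate 2 of ‘CF1’ (-1.23) also gave a call. In ‘RCF2’ vs. ‘CF2’ it was 0.55 ± 0.11 (adjusted P = 0.029). With all libraries, the genes that rose in ‘CF’ beside IAA13 were PCP044845 (1.18 ± 0.39) and PCP005953 (1.13 ± 0.40). Both lost the call without replicate 3 of ‘CF1’ (0.74 and 0.66). PCP044845 also lost it without replicate 1 (1.21) or 3 (1.09) of ‘CF2’, and PCP005953 without replicate 1 (1.08), 2 (1.18) or 3 (1.14) of ‘CF2’. Array weights and a pseudocount of 0.1 ended both calls. At 5 DAFB no Aux/IAA-ARF gene was called between the cultivars, and the fold changes ran from -0.54 to 0.55 with a median of -0.05. Of the 33 genes, 15 had an unadjusted P under 0.05, as did 24.4% of all genes.

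Of the 3 genes with the ARF domain name only PCP020039 was tested. ARFs are the transcription factors that Aux/IAA proteins bind. Its values were 1.28, 0.921 and 0.841 FPKM in ‘RCF2’, 1.44, 0.736 and 1.26 in ‘RCF1’, 0.520, 1.31 and 1.26 in ‘CF2’, and 2.64, 0.851 and 1.68 in ‘CF1’. The groups overlapped in all comparisons and its log2 fold changes lay between -0.39 and 0.01, none of them called. PCP022516 stayed under an FPKM of 1 and PCP028489 was at 0 in all libraries. Genes that the study names as ARFs carry another domain name in the table and are not among the 83, so these 3 genes are not a survey of pear ARFs.

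The GH3 family was represented by 15 genes, of which 11 were tested. The domain name alone does not tell which of them encode enzymes that join auxin to amino acids. The family sum was 301.8 ± 56.5 FPKM in ‘RCF2’, 198.7 ± 25.2 in ‘RCF1’, 227.4 ± 24.2 in ‘CF2’ and 119.3 ± 60.9 in ‘CF1’. PCP010701, which the study's annotation names GH3.1, held 50.2% of that sum in ‘RCF2’, 44.6% in ‘RCF1’, 29.5% in ‘CF2’ and 30.4% in ‘CF1’. In replicate 3 of ‘CF1’ the family sum was 49.1 FPKM, against 155.6 and 153.3 in the other ‘CF1’ replicates.

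PCP010701 (scaffold 01167, 16406 to 18694, plus strand) was the only one of the 64 genes called higher in ‘RCF2’ than in ‘CF2’. It had 129.0, 199.4 and 126.1 FPKM in ‘RCF2’, 66.0, 114.3 and 85.8 in ‘RCF1’, 51.1, 67.6 and 82.7 in ‘CF2’, and 57.1, 50.2 and 1.46 in ‘CF1’. ‘RCF’ was above ‘CF’ at both stages without overlap. In ‘RCF2’ vs. ‘CF2’ the log2 fold change was 1.16 ± 0.22 (limma, adjusted P = 0.026). It fell under the fold threshold without replicate 2 of ‘RCF2’ (0.94) or replicate 1 of ‘CF2’ (0.98), and in 1 fit of all 12 libraries it was not called. In ‘RCF1’ vs. ‘CF1’ it was 2.17 ± 1.24 (adjusted P = 0.38), and 0.68 ± 0.23 (adjusted P = 0.22) without replicate 3 of ‘CF1’. Between stages it was 0.77 ± 0.23 in ‘RCF’ (adjusted P = 0.029) and 1.78 ± 1.22 in ‘CF’ (adjusted P = 0.28), or 0.29 ± 0.20 in ‘CF’ without replicate 3 of ‘CF1’. PCP025233, next in level with a mean of 48.4 FPKM, was not called in any comparison. It was at 0.89 ± 0.13 in ‘RCF2’ vs. ‘RCF1’ (adjusted P = 0.0013).

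The other 4 GH3 genes that did not overlap between the cultivars at 5 DAFB were lower in ‘RCF2’, by less than the fold threshold. In all, 5 of the 11 genes did not overlap there, as did 29.9% of all genes tested. PCP036517 had 22.5, 20.8 and 20.2 FPKM in ‘RCF2’, 9.70, 10.7 and 11.8 in ‘RCF1’, 34.4, 31.6 and 31.0 in ‘CF2’, and 9.91, 9.02 and 1.05 in ‘CF1’. At 5 DAFB the cultivars did not overlap, and the log2 fold change was -0.59 ± 0.07 (limma, adjusted P = 0.0080). It was 2.45 ± 0.64 in ‘CF2’ vs. ‘CF1’ (adjusted P = 0.043) and 1.67 ± 0.10 without replicate 3 of ‘CF1’ (adjusted P = 0.00095), and in ‘RCF’ it was 0.92 ± 0.09 (adjusted P = 0.00016). PCP007672, named GH3.6, rose in both cultivars. It had 11.2, 11.3 and 10.4 FPKM in ‘RCF2’, 2.996, 4.91 and 4.42 in ‘RCF1’, 16.5, 12.8 and 13.96 in ‘CF2’, and 2.95, 5.23 and 0.442 in ‘CF1’. Its log2 fold change between stages was 1.25 ± 0.14 in ‘RCF’ (adjusted P = 0.00036) and 2.22 ± 0.52 in ‘CF’ (adjusted P = 0.034), or 1.63 ± 0.22 in ‘CF’ without replicate 3 of ‘CF1’.

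PCP008235 had stage differences of opposite sign in the cultivars. Its values were 28.1, 29.5 and 31.3 FPKM in ‘RCF2’, 35.4, 39.2 and 39.9 in ‘RCF1’, 46.6, 47.4 and 41.5 in ‘CF2’, and 23.8, 25.8 and 14.2 in ‘CF1’. Its groups overlapped in none of the 4 comparisons. In ‘CF2’ vs. ‘CF1’ the log2 fold change was 1.09 ± 0.23 (limma, adjusted P = 0.028), and with 0.84 ± 0.11 without replicate 3 of ‘CF1’ and 0.88 with array weights it was under the fold threshold. In ‘RCF2’ vs. ‘RCF1’ it was -0.35 ± 0.08 (adjusted P = 0.0075), in ‘RCF2’ vs. ‘CF2’ it was -0.59 ± 0.08 (adjusted P = 0.0091) and in ‘RCF1’ vs. ‘CF1’ 0.85 ± 0.23 (adjusted P = 0.25). PCP007400 (GH3.13) and PCP023392 were the GH3 genes that fell in ‘CF2’ vs. ‘CF1’, each at -1.35 (adjusted P = 0.033 and 0.037). PCP007400 had 3.63, 3.27 and 4.53 FPKM in ‘CF2’, against 11.9, 6.83 and 16.9 in ‘CF1’, and replicate 3 was again the farthest library, here upwards. Without it the values were -1.07 for PCP007400 and -1.02 for PCP023392, and both were still called.

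**Figure D4:**
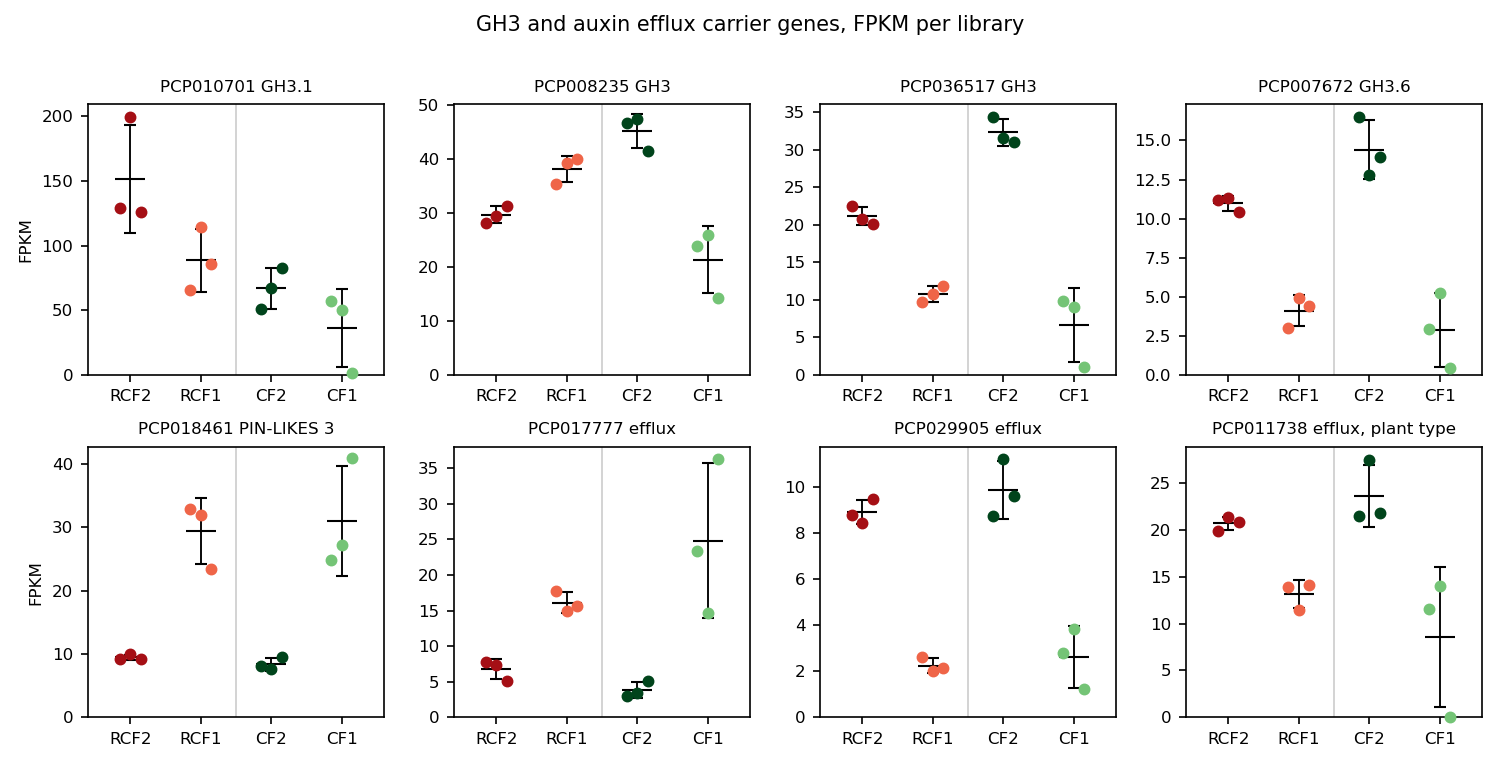
FPKM per library of 4 GH3 genes and 4 auxin efflux carriers, with the groups on the x axis. Points are libraries, and the bar and whiskers are the mean and SD (n = 3). GH3.1 was above 126 FPKM in each ‘RCF2’ library and below 83 in each ‘CF2’ library, and PIN-LIKES 3 lay under 10 FPKM at 5 DAFB in both cultivars.

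The efflux carriers with the domain name "plant type", the label of the PIN family, were low to moderate in level, and 7 of 11 were tested. Their sum was 76.3 ± 5.3 FPKM in ‘RCF2’, 57.1 ± 4.5 in ‘RCF1’, 88.6 ± 4.9 in ‘CF2’ and 77.4 ± 9.0 in ‘CF1’. In ‘RCF2’ vs. ‘RCF1’ the stages did not overlap for any of the 7 genes, 6 higher and 1 lower at 5 DAFB, against 56.5% of all genes. Only PCP027040 was called, with 2.92, 3.39 and 2.77 FPKM in ‘RCF2’, against 0.855, 0.759 and 1.10 in ‘RCF1’ (log2 fold change 1.08 ± 0.12, limma, adjusted P = 0.00028). In ‘CF2’ vs. ‘CF1’, PCP044091 (1.63 ± 0.47) and PCP027040 (1.17 ± 0.41) were called higher and PCP021016 lower (-1.29 ± 0.48), none of which held after adjustment (adjusted P = 0.052 to 0.091). Without replicate 3 of ‘CF1’, PCP044091 was at 1.08 ± 0.15 (adjusted P = 0.0043), and PCP027040 (0.70) and PCP021016 (-0.84) were not called. A pseudocount of 0.1 ended the calls of PCP044091 and PCP027040, and array weights that of PCP027040 (0.67). The call of PCP027040 was also lost without replicate 1 (1.15) or 2 (1.07) of ‘CF2’. That of PCP021016 was lost without any single library but replicate 2 of ‘CF1’, with values from -1.82 to -0.84.

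This family showed the deepest gap inside ‘CF1’. PCP011738, one of the most abundant of the family, had 19.9, 21.3 and 20.8 FPKM in ‘RCF2’, 13.9, 11.4 and 14.1 in ‘RCF1’, 21.5, 27.4 and 21.8 in ‘CF2’, and 11.5, 14.1 and 0.0851 in ‘CF1’. PCP009889 and PCP006064 were likewise at 0.159 and 0.0364 FPKM in replicate 3 of ‘CF1’, against 8.21 and 11.4, and 5.99 and 7.17, in its other replicates. Exceptions were PCP005405 and PCP021016. PCP005405 had 13.3, 13.0 and 13.8 FPKM in ‘CF1’. PCP021016, the other abundant gene, had 9.33, 10.7 and 9.58 FPKM in ‘RCF2’, 14.1, 13.7 and 17.8 in ‘RCF1’, 15.1, 14.4 and 12.6 in ‘CF2’, and 40.3, 16.5 and 67.2 in ‘CF1’. It was the only carrier called between the cultivars, at -1.19 ± 0.48 in ‘RCF1’ vs. ‘CF1’ (limma, adjusted P = 0.32) with overlapping groups. That call too was lost without any single library but replicate 2 of ‘CF1’, with values from -1.72 to -0.74, and in 4 of the other 8 settings. At 5 DAFB it was -0.47 ± 0.09 (adjusted P = 0.026). There 4 of the 7 genes did not overlap between cultivars, all lower in ‘RCF2’, against 29.9% of all genes in either direction.

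Of the 11 genes with the shorter name "Auxin efflux carrier", the domain that PIN and PIN-LIKES proteins share, 6 were tested. Their sum was 71.6 ± 3.7 FPKM in ‘RCF2’, 95.7 ± 8.7 in ‘RCF1’, 63.7 ± 2.9 in ‘CF2’ and 135.1 ± 44.6 in ‘CF1’. PCP018461, named PIN-LIKES 3, had 9.23, 9.96 and 9.25 FPKM in ‘RCF2’, 32.8, 32.0 and 23.5 in ‘RCF1’, 8.07, 7.62 and 9.56 in ‘CF2’, and 24.9, 27.2 and 41.01 in ‘CF1’. It fell in both cultivars and the stages did not overlap. On the log2 scale the difference was -1.52 ± 0.13 in ‘RCF’ (limma, adjusted P = 8.0e-05) and -1.74 ± 0.21 in ‘CF’ (adjusted P = 0.0094), and the call was kept without each library.

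PCP017777 fell with it, to 7.84, 7.37 and 5.14 FPKM in ‘RCF2’, against 17.8, 14.99 and 15.6 in ‘RCF1’, and to 2.99, 3.42 and 5.09 in ‘CF2’, against 23.4, 14.7 and 36.3 in ‘CF1’. The log2 fold changes were -1.15 ± 0.14 (limma, adjusted P = 0.00053), or -0.99 without replicate 3 of ‘RCF2’, and -2.35 ± 0.34 (adjusted P = 0.012), or -2.04 without replicate 3 of ‘CF1’. PCP029905 went the other way. It had 8.78, 8.44 and 9.47 FPKM in ‘RCF2’, 2.60, 1.99 and 2.15 in ‘RCF1’, 8.73, 11.2 and 9.62 in ‘CF2’, and 2.81, 3.84 and 1.21 in ‘CF1’. It rose by 1.61 ± 0.10 in ‘RCF’ (adjusted P = 2.3e-05) and by 1.65 ± 0.30 in ‘CF’ (adjusted P = 0.020), without overlap. PCP006582, the most abundant of the family at a mean of 38.4 FPKM, was not called, and no gene of this group was called between the cultivars.

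Dormancy/auxin associated genes included the most abundant of the 83 genes and the one with the largest fold changes. All 6 were tested. Their sum was 380.1, 312.0 and 372.5 FPKM in ‘RCF2’, 860.8, 968.1 and 935.7 in ‘RCF1’, 690.2, 548.1 and 575.6 in ‘CF2’, and 1377, 1011 and 2028 in ‘CF1’. The sums of the 4 groups did not overlap, with ‘RCF’ under ‘CF’ at each stage and 5 DAFB under 2 DAFB in each cultivar. In ‘RCF2’ vs. ‘RCF1’ 4 of the 6 fell and in ‘CF2’ vs. ‘CF1’ 3 fell, or 2 without replicate 3 of ‘CF1’, and none rose. In ‘RCF2’ vs. ‘CF2’ 2 were called lower and all 6 had a fold change below 0, with a median of -0.77 against -0.01 over all genes. The groups did not overlap for 5 of the 6, and for 29.9% of all genes. In ‘RCF1’ vs. ‘CF1’ 2 were called lower, neither after adjustment, with a median of -0.78. Without replicate 3 of ‘CF1’, 1 was called lower and the median was -0.47.

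PCP019781, named auxin-repressed protein after its strawberry relative, had the largest fold changes of the 64 genes. It lies on scaffold 00313 from 50416 to 51970, on the plus strand. It had 2.70, 2.22 and 2.68 FPKM in ‘RCF2’, 59.7, 71.3 and 57.6 in ‘RCF1’, 8.71, 4.07 and 8.25 in ‘CF2’, and 143.8, 69.4 and 207.3 in ‘CF1’. Every ‘RCF2’ library lay below every other library, and only replicate 2 of ‘CF1’ came into the range of ‘RCF1’. The log2 fold change between stages was -4.17 ± 0.10 in ‘RCF’ (limma, adjusted P = 7.9e-07) and -4.06 ± 0.45 in ‘CF’ (adjusted P = 0.0085), and was -3.71 ± 0.39 in ‘CF’ without replicate 3 of ‘CF1’.

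Between the cultivars PCP019781 was at -1.13 ± 0.24 in ‘RCF2’ vs. ‘CF2’ (limma, adjusted P = 0.034), and at -0.96 and -0.99 without replicate 1 or replicate 3 of ‘CF2’, where it was not called. At 2 DAFB it was at -1.01 ± 0.40 (adjusted P = 0.32), on the fold threshold. That call was lost in 5 of the 6 cases where a library was left out, all but replicate 2 of ‘CF1’, with values from -1.45 to -0.67, -0.67 ± 0.30 being the value without replicate 3 of ‘CF1’, and it was lost in 4 of the other 8 settings.

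**Figure D5:**
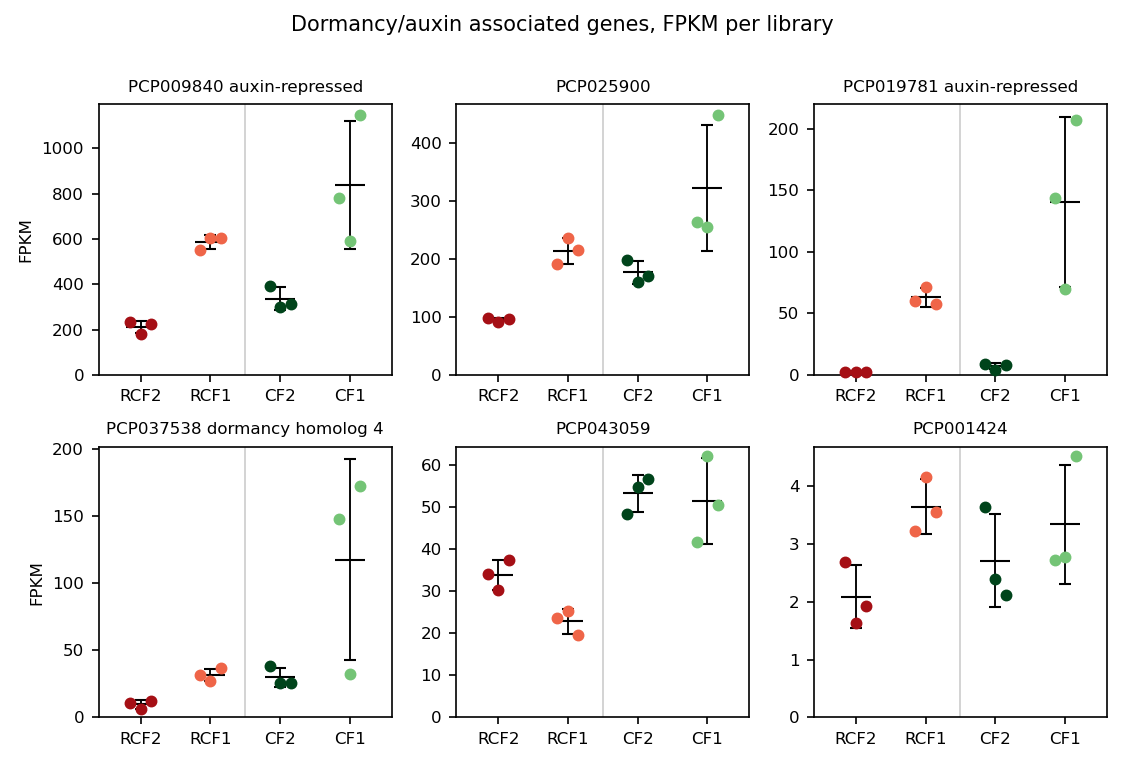
FPKM per library of the 6 dormancy/auxin associated genes, with the groups on the x axis. Points are libraries, and the bar and whiskers are the mean and SD (n = 3). In PCP009840, PCP025900, PCP019781 and PCP037538 each ‘RCF2’ library was below each library of every other group, while PCP043059 was lowest in ‘RCF1’, at 19.6 to 25.3 FPKM.

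PCP037538, named dormancy-associated protein homolog 4, was called lower in ‘RCF2’ than in ‘CF2’ in every alternative run and without each library. Its values were 11.1, 5.99 and 12.3 FPKM in ‘RCF2’, 31.3, 27.5 and 36.5 in ‘RCF1’, 38.03, 25.7 and 25.7 in ‘CF2’, and 147.4, 32.0 and 172.2 in ‘CF1’. The ‘RCF2’ libraries were lowest, while replicate 2 of ‘CF1’ lay with ‘RCF1’ and ‘CF2’ and far from the other ‘CF1’ libraries. The log2 fold change was -1.54 ± 0.26 in ‘RCF2’ vs. ‘CF2’ (limma, adjusted P = 0.018) and -1.65 ± 0.23 in ‘RCF2’ vs. ‘RCF1’ (adjusted P = 0.00094). In ‘CF2’ vs. ‘CF1’ it was -1.64 ± 0.64 (adjusted P = 0.10). This call was lost without any single library but replicate 2 of ‘CF1’, with values from -2.40 to -1.21, and with no filter, on TPM and after quantile normalization. In ‘RCF1’ vs. ‘CF1’ it was -1.54 ± 0.64 (adjusted P = 0.32), not called. It was called without replicate 2 of ‘CF1’ (-2.30), with array weights (-2.19, adjusted P = 0.00047), and at the same -1.54 with the replicate block and in 1 fit of all 12 libraries, where the adjusted P was 0.35 and 0.096.

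The most abundant of all 83 genes was PCP009840, also named auxin-repressed protein. It had 231.8, 180.0 and 222.5 FPKM in ‘RCF2’, 551.8, 604.5 and 603.2 in ‘RCF1’, 393.4, 300.4 and 312.5 in ‘CF2’, and 778.6, 589.7 and 1145 in ‘CF1’. At 5 DAFB it had fallen in both cultivars, by 1.48 ± 0.11 in ‘RCF’ (limma, adjusted P = 4.4e-05) and by 1.27 ± 0.30 in ‘CF’ (adjusted P = 0.033) on the log2 scale, or by 1.02 ± 0.18 in ‘CF’ without replicate 3 of ‘CF1’. In ‘RCF2’ vs. ‘CF2’ it was at -0.66 ± 0.13 (adjusted P = 0.030), without overlap and short of the fold threshold. PCP025900, next in level, had 97.8, 92.0 and 95.8 FPKM in ‘RCF2’, 191.1, 235.3 and 215.3 in ‘RCF1’, 198.2, 160.7 and 170.4 in ‘CF2’, and 263.0, 254.9 and 448.0 in ‘CF1’. Its cultivars did not overlap at either stage. It fell by 1.16 ± 0.09 on the log2 scale in ‘RCF2’ vs. ‘RCF1’ (adjusted P = 5.4e-05), and between the cultivars it was -0.88 ± 0.09 at 5 DAFB (adjusted P = 0.0046) and -0.54 ± 0.26 at 2 DAFB (adjusted P = 0.35), or -0.28 ± 0.13 without replicate 3 of ‘CF1’.

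PCP043059 differed from the rest of its family. It had 34.0, 30.2 and 37.3 FPKM in ‘RCF2’, 23.7, 25.3 and 19.6 in ‘RCF1’, 48.2, 54.9 and 56.7 in ‘CF2’, and 41.7, 62.1 and 50.5 in ‘CF1’. The cultivars did not overlap at either stage, and it did not fall with stage. In ‘RCF1’ vs. ‘CF1’ the log2 fold change was -1.12 ± 0.18 (limma, adjusted P = 0.14), which was -1.13 ± 0.20 without replicate 3 of ‘CF1’ (adjusted P = 0.078) and -0.98, not called, without replicate 2 of ‘CF1’. With array weights it was -0.84 and not called. In ‘RCF2’ vs. ‘CF2’ it was -0.64 ± 0.10 (adjusted P = 0.013), and in ‘RCF2’ vs. ‘RCF1’ 0.55 ± 0.11 (adjusted P = 0.0062). PCP001424, the least abundant at 1.64 to 4.53 FPKM over the 12 libraries, was not called in any comparison.

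Whether the cultivars differed in their change from 2 to 5 DAFB was tested as an interaction over all 12 libraries. It called 4 genes with a more positive and 2 with a more negative change in ‘RCF’ than in ‘CF’, against 2.59% and 1.37% of all genes. None held after adjustment in limma, nor did any of all genes tested (0%). An unadjusted P under 0.05 alone was reached by 10 of the 64 genes and by 15.8% of all genes. Of the 6 calls, those of PCP008235 (-1.44 ± 0.26, adjusted P = 0.087) and PCP031409 (1.55 ± 0.34, adjusted P = 0.11) were kept without each library. Without replicate 3 of ‘CF1’ these were the only 2 calls among the 64 genes, against 2.14% of all genes with a more positive and 0.654% with a more negative change, and PCP008235 then held (-1.19 ± 0.12, adjusted P = 0.0052). With array weights, 5 of the 64 genes were called and held, and 5.94% of all genes were called. For PCP019781 and PCP037538 the interaction was -0.11 ± 0.50 (adjusted P = 0.91) and -0.00 ± 0.75 (adjusted P = 1), and -0.46 ± 0.42 and -0.44 ± 0.67 without replicate 3 of ‘CF1’, so that a difference in stage change between the cultivars was not detected and could not be bounded closely.

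Further auxin genes were counted by domain name, with all libraries in. SAUR genes, small auxin-induced transcripts left out by the rule, counted 83, of which 29 were tested. Of these 1 was higher and 6 were lower in ‘RCF2’ vs. ‘CF2’, against 0.902% and 0.358% of all genes, with a median of -0.33. In ‘RCF2’ vs. ‘RCF1’ 2 were higher and 7 lower, against 3.54% and 6.71%, with a median of 0.02. Between the stages of ‘CF’ 9 were higher and 7 lower, against 7.23% and 9.91%, with a median of 0.57. In ‘RCF1’ vs. ‘CF1’ 2 were higher and 3 lower, against 1.02% and 1.87%. These counts were not made without replicate 3 of ‘CF1’. Flavin monooxygenase-like genes, the domain of the YUCCA enzymes of auxin synthesis, counted 27, of which 7 were tested. None of these was called between the cultivars, while 2 were higher in ‘RCF2’ than in ‘RCF1’ and 3 in ‘CF2’ than in ‘CF1’, against the same shares of all genes.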

How the data were processed

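Libraries were made from skins of young fruits of ‘RCF’ and ‘CF’ at 2 and 5 DAFB, 3 replicates each. The authors deposited 1 table of FPKM per gene and library, per the labels, scaled by them to gene length and mapped fragments. The submitters' processing notes list Trimmomatic 0.38, HISAT2 2.1.0, StringTie 1.3.4d and DESeq2. The Results of the study name an apple genome for mapping, whereas the table lists PCP identifiers on scaffolds. The build of its coordinates is not given in the sources used here, and read counts and depth per library were not used, so intervals from counting could not be given. The sum of FPKM per library was 575131 to 636409. All columns were matched to samples by their titles. None of the 42167 genes of the reference annotation carries a PCP identifier (0 matched), so domain names and positions were read from the deposited table, gene names are those of the study's annotation lists, and no sequences are shown.

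Values were analysed as log2(FPKM + 1) for the 25707 genes that reached an FPKM of 1 in 3 or more libraries, in limma 3.58.1 (R 4.3.3, lmFit and eBayes with trend, two-sided), each pairwise comparison on its own 6 libraries and the interaction on all 12. The thresholds (unadjusted P under 0.05, absolute log2 fold change of at least 1) are those of the study. The fit was tested on simulated data. Tables and plots were made in Python 3.11.15 with numpy 2.4.6, pandas 2.3.3 and matplotlib 3.10.9. Named are genes with a name in the study's annotation, in each family and comparison the 3 called genes at each end of the fold changes, the 2 most abundant of each family, and those called for the interaction. Not every such gene is printed. PCP021776, PCP041423 and PCP006037, as well as PCP009889, PCP006064, PCP005405, PCP001424 and PCP028489, were named after their values were seen. Alternatives were a pseudocount of 0.1, no filter, a filter at an FPKM of 10, TPM, quantile normalization, limma array weights, a block for the replicate number, 1 fit of all 12 libraries, the adjusted P as threshold, and each library left out. Lists of tryptophan aminotransferase and auxin-binding domains matched 0 genes and were not used. The summed FPKM of the pollen, lipid transfer and START domain lists was computed for each library and is given in the closing section. The genes and lists were chosen with earlier results of these data known.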

Additional observations from a re-analysis of the deposited data

Results flagged for a closer look

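The change from 2 to 5 DAFB in ‘RCF’ minus that in ‘CF’, tested as an interaction in limma over all 12 libraries, was called for 6 of the 64 genes, and none held after adjustment over all genes. The difference was -1.44 for the GH3 gene PCP008235 and -1.08 for the Aux/IAA-ARF gene PCP043715. It was 1.55 for the Aux/IAA-ARF gene PCP031409, 1.20 for the efflux carrier PCP017777, 1.15 for the GH3 gene PCP007400 and 1.04 for the efflux carrier PCP013888. Only PCP008235 and PCP031409 were called without each of the 12 libraries. Without replicate 3 of ‘CF1’ the others were at -0.67 (PCP043715), 0.89 (PCP017777), 0.87 (PCP007400) and 0.83 (PCP013888). PCP007400 was also lost without 6 other libraries and PCP013888 without 4 others. In both cultivars PCP017777 fell, and the 3 libraries of ‘RCF2’ were all above those of ‘CF2’.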

How the results depend on the processing

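The number of the 64 genes called in ‘RCF2’ vs. ‘RCF1’ was 15 and stayed between 12 and 18 under all alternatives. In ‘RCF1’ vs. ‘CF1’ it was 5, and became 0 with the adjusted P as threshold, 3 with no filter on low FPKM and 9 in 1 fit of all 12 libraries, and 2 to 11 with a library left out (2 without replicate 3 and 11 without replicate 2 of ‘CF1’). In ‘RCF2’ vs. ‘CF2’ it was 3, and 1 to 4 with a library left out (1 without replicate 1 of ‘CF2’). In ‘CF2’ vs. ‘CF1’ it was 18, and became 11 with the adjusted P, 11 with the filter at an FPKM of 10, where fewer genes were tested, and 30 in the fit of all 12 libraries, and 13 to 34 with a library left out (34 without replicate 2 of ‘CF1’). After adjustment 11 held there, and 0 without replicate 1 or 2 of ‘CF2’, 3 without replicate 3 of ‘CF2’, 4 without replicate 1 of ‘CF1’, 6 with no filter, 8 with the filter at an FPKM of 10, 13 without replicate 3 of ‘CF1’, 16 with array weights, 24 without replicate 2 of ‘CF1’ and 28 in the fit of all 12 libraries. For the interaction it was 6, and became 0 with the adjusted P and 2 to 17 with a library left out. The cause of these shifts was not tested. Rescaling to TPM turned the split of higher and lower calls in ‘RCF1’ vs. ‘CF1’ from 2 and 3 into 3 and 1, array weights into 1 and 5, and in ‘CF2’ vs. ‘CF1’ from 9 and 9 into 12 and 8 on TPM and 13 and 8 after quantile normalization. TPM moved the median of all genes in ‘CF2’ vs. ‘CF1’ to 0.26, against 0.16. With the replicate number as a replicate block the counts were 20 in ‘CF2’ vs. ‘CF1’, where 7 held after adjustment against 11, and 15 in ‘RCF2’ vs. ‘RCF1’, 5 at 2 DAFB and 3 at 5 DAFB between the cultivars, and 6 for the interaction. The correlations of deviations were -0.18 to 0.33 between same-numbered replicates and -0.27 to 0.29 between differently numbered ones. In ‘RCF2’ vs. ‘CF2’ they were 0.05 to 0.20 and -0.18 to 0.06. The labels do not say whether replicates of the same number belong together, and these values do not settle it. Over the fold changes of the named genes and all alternatives, 2300 kept their side of the threshold, 87 lost it, 43 gained it. Of the 663 values whose comparison was called with all libraries, none turned its sign. Of the 1767 that were not called, 73 did, 8 of them with an unadjusted P under 0.05 in limma, among them PCP036703 and PCP007207 in ‘RCF1’ vs. ‘CF1’ at -0.51 and -0.79 with array weights. Genes of low FPKM rest on few fragments, and without counts their precision is unknown.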

Other observations

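The summed FPKM of 3 other lists, set to describe the tissue, is given per group. Lipid transfer genes summed to 9971 to 12370 FPKM in ‘RCF2’, 8913 to 9833 in ‘RCF1’, 12390 to 13630 in ‘CF2’ and 6430 to 10400 in ‘CF1’. START domain genes summed to 955.6 to 1017 in ‘RCF2’, 898.9 to 975.2 in ‘RCF1’, 922.6 to 1026 in ‘CF2’ and 651.1 to 1066 in ‘CF1’. Pollen domain genes summed to 3478 to 3702 in ‘RCF2’, 3115 to 3688 in ‘RCF1’, 3692 to 3773 in ‘CF2’ and 3129 to 3489 in ‘CF1’. The lowest library was replicate 3 of ‘CF1’ for the lipid transfer and START lists.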
